A study of Mus musculus with 27 samples.

Results

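The step from day 4 to day 5 of control embryoid bodies was followed on 4 of the 27 Affymetrix expression arrays of the series, the 2 control arrays of day 4 and the 2 of day 5, chosen by their titles. Embryoid bodies are aggregates in which embryonic stem cells leave pluripotency and form early germ layer cells. These were made by hanging drop from AB2.2 mouse embryonic stem cells, and they were moved to tissue culture plates at day 4.5, between the days compared. All 4 arrays carried the same lentivirus, which expresses enhanced green fluorescent protein with a short hairpin RNA (shRNA) against firefly luciferase, a gene that mouse cells lack, and the transduced cells had been sorted by fluorescence. The other arm carried an shRNA against Sox17, an endoderm transcription factor, in the same vector. Its 4 arrays of the same days are set against the control in 1 comparison below. All arrays of that arm also enter the main fit, and all but its lone day 0 array add to the estimate of spread. The labels name the 2 arrays of a day as biological replicates, but they do not say whether these come from separate transductions. The p-values measure only the spread between such arrays, pooled over the groups of both arms with 2 arrays and not taken from these 4 arrays alone. The arrays used here include no culture left unplated at day 5, so plating and a day of differentiation cannot be told apart.

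In the mouse embryo, epiblast cells pass through the primitive streak under Nodal, Wnt and Fgf signals, become mesenchymal and leave as mesoderm or definitive endoderm. Streak cells express the T-box and homeobox factors Eomes, Mixl1, Evx1 and Gsc. Mesp1 marks the first mesoderm that leaves, and heart progenitors later use Isl1, Tbx20, Hand1 and Mef2c before the genes of the contractile apparatus come on. In bulk RNA, fewer cells of a type and less RNA of a gene per cell cannot be told apart.

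The arrays did not form an even set. The signal of bioB, a bacterial RNA added as a hybridisation control, was 9.04 (log2) on day 4 replicate 1 and 6.79 on day 4 replicate 2, against 6.72 and 6.54 at day 5. An 18S ribosomal RNA control read 8.18 on day 4 replicate 1, 6.73 on replicate 2, and 6.88 and 6.77 at day 5. Only day 4 replicate 2 thus resembled the day 5 arrays in these signals, so the step was also fitted against that array alone, a comparison in which the lone day 4 array is assumed to vary like the other groups. With the bioB signal as a covariate 1042 genes were called instead of 1353. Of the 113 genes named by rule, 83 were then called instead of 103. The part of the 18S signal was not tested. The actin 3' minus 5' difference, a sign of RNA quality, lay between 0.35 and 0.55 on all 4 arrays. The replicates differed over genes with an SD of 0.34 at day 4 and 0.18 at day 5.

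Across the 13297 genes tested, 1353 changed from day 4 to day 5 (10.2%), 532 higher (4.00%) and 821 lower (6.17%), by limma with Benjamini-Hochberg adjusted p below 0.05. Of the changes, 251 (1.89%) were at least 2-fold, and among these the balance turned, with 136 genes higher (1.02%) and 115 lower (0.865%). The split depended on scaling: 790 genes rose and 641 fell when each array was centred on its median, 718 rose and 708 fell after cyclic loess, and 287 rose and 755 fell with the bioB signal as a covariate. Against day 4 replicate 2 alone 305 genes changed (2.29%), 106 higher (0.797%) and 199 lower (1.50%), of which 294 (2.21%) were among the 1353. In all 1353 the arrays of the days did not overlap, so their sign against replicate 2 could not differ. Their median absolute difference was 0.58 (log2) against replicate 2, 0.72 against replicate 1 and 0.65 with both arrays. Without day 5 replicate 1 the count was 218 and without day 5 replicate 2 it was 834. The arrays of the days did not overlap in 7265 genes (54.6%), so separation of 2 arrays from 2 is by itself a common event in this table.

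**Figure D1:**
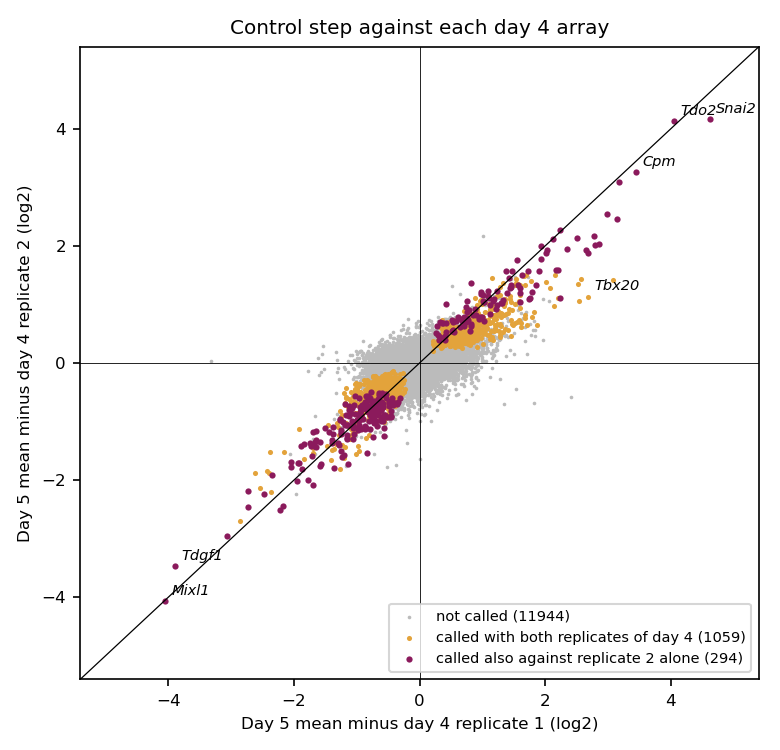
Each point is 1 of the 13297 genes, with the mean of day 5 minus day 4 replicate 1 on the x axis and minus day 4 replicate 2 on the y axis, both in log2 units. The genes with the largest changes, Snai2, Tdo2, Cpm, Mixl1 and Tdgf1, lie near the diagonal, where both day 4 arrays give the same difference, while Tbx20 lies well below it.

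The 15 largest rises and 15 largest falls that passed the test with both day 4 arrays and against replicate 2 alone were the genes described most fully. A further condition was that the arrays of the days did not overlap. Each of these 30 genes also kept its call when any of the other 3 arrays was left out, as 184 genes did in all (1.38%), and with the bioB signal as a covariate. Where another gene named below as changed over the step did not pass against replicate 2 alone, this is said beside it. Counts of called list members are to be read beside the 10.2% of all genes called with both day 4 arrays.

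The primitive streak list had the lowest median of the 39 gene lists. Its member T, a marker of the streak, was not tested. Of 14 streak genes tested, 8 fell and 0 rose, both with all arrays and against day 4 replicate 2 alone, and 8 were called without each of the 4 arrays in turn. Their median difference was -1.86 (log2), against -0.06 over all genes, and 10.2% of all genes were called. Mixl1, a homeobox factor of the streak, read 10.08 and 10.10 (log2) at day 4, then 5.82 and 6.25 at day 5. Both day 5 arrays were thus far below both day 4 arrays, and the fall was 16.7-fold, a log2 difference of -4.06 (SE 0.37, adjusted p = 7.07e-06; -4.07 and adjusted p = 3.21e-04 against replicate 2). Gsc, a homeobox repressor of the anterior streak and organizer, read 7.16 and 6.88 at day 4, then 4.40 and 4.44 at day 5. It ended below the median of all values on the arrays (5.53), after a difference of -2.59 (SE 0.28, adjusted p = 2.89e-05).

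Of the other streak genes that fell, Evx1, Eomes, Nodal and Sp5 stayed above that median at day 5, and the ligand genes Fgf8 and Wnt8a did not. Fgf8, which streak cells need to migrate away, lay at 7.19 and 7.46 on the day 4 arrays and at 4.93 and 5.09 on those of day 5, a difference of -2.31 (SE 0.33, adjusted p = 3.56e-04). Evx1, a homeobox factor of the posterior streak, went from 8.36 and 8.43 to 6.31 and 6.52 (-1.98, SE 0.22, adjusted p = 3.50e-05). Eomes, the T-box factor needed for both endoderm and cardiac mesoderm, went from 10.00 and 10.38 to 8.33 and 8.28. Its difference of -1.89 (SE 0.37, adjusted p = 0.0039) left a level that was still well above background at day 5. Wnt8a fell by 1.65 (SE 0.28, adjusted p = 0.0014), and Lhx1, at 9.85 and 10.13 before and 7.95 and 7.81 after, missed the threshold (-2.10, SE 0.76, adjusted p = 0.0865).

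**Figure D2:**
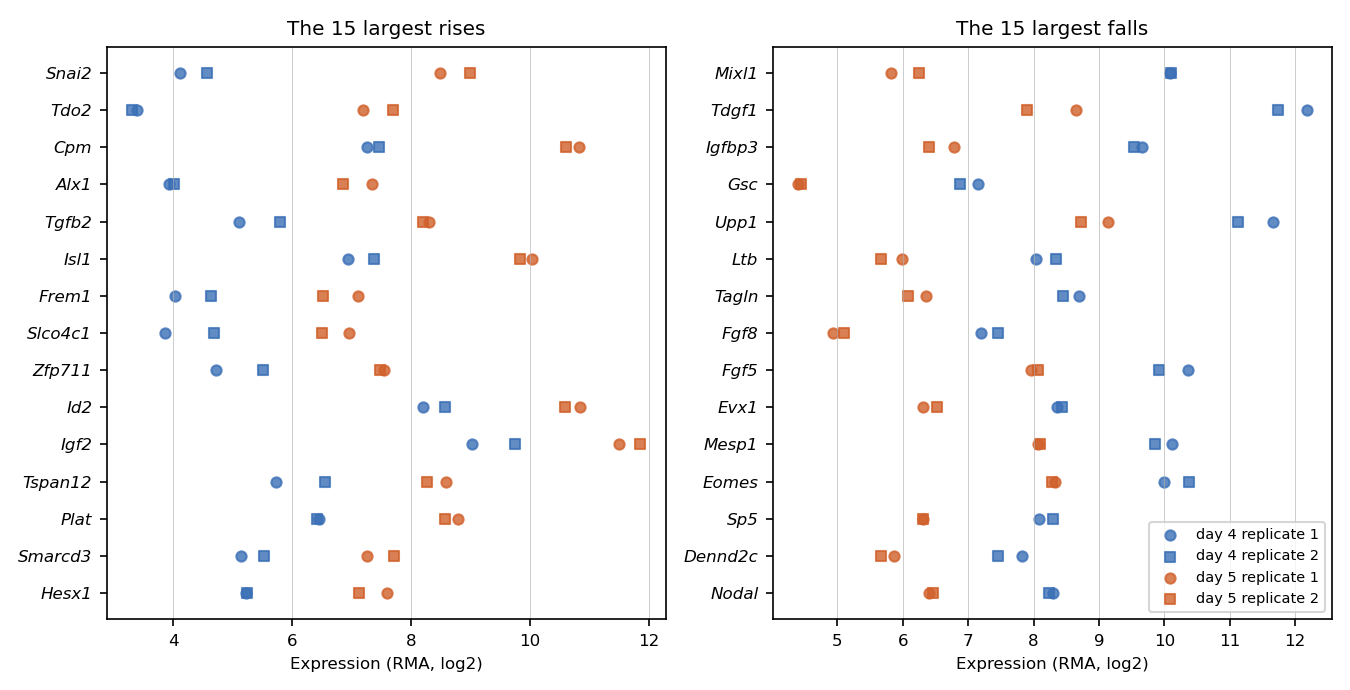
Log2 expression on each of the 4 control arrays for the 15 largest rises (left) and the 15 largest falls (right), with day 4 in blue, day 5 in orange, circles for replicate 1 and squares for replicate 2. In each gene the day 5 arrays lie apart from the day 4 arrays, which was a condition of the choice. Mixl1 shows the day 4 arrays at 10.08 and 10.10.

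Genes of nascent mesoderm fell in part. Of 14 tested, 7 fell and 0 rose, with a median of -0.82 (5 fell against day 4 replicate 2 alone, and 2 were called without day 5 replicate 1). Mesp1, the factor of the first cardiac and cranial mesoderm, read 10.12 and 9.85 at day 4, then 8.07 and 8.10 at day 5, a difference of -1.91 (SE 0.32, adjusted p = 0.0013). Dll3, a Notch ligand of the streak and presomitic mesoderm, fell by 1.65 on the log2 scale (SE 0.31, adjusted p = 0.0034). Snai1, the repressor that starts the loss of E-cadherin in the streak, went from 7.44 and 7.82 to 6.02 and 6.40 (-1.42, SE 0.33, adjusted p = 0.0109). The receptor genes Kdr and Pdgfra, which mark mesoderm that has left the streak, did not pass the test, with differences of -0.73 and 0.79.

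Some genes of the Nodal pathway fell over the same step, with 25.0% of the list called against 10.2% of all genes. Nodal, the ligand that induces it, lay at 8.30 and 8.24 on the day 4 arrays and at 6.40 and 6.46 on those of day 5 (-1.84, SE 0.27, adjusted p = 4.67e-04). Tdgf1, the Nodal co-receptor Cripto, went from 12.18 and 11.74 to 8.65 and 7.90. That 12.8-fold fall (-3.68, SE 0.39, adjusted p = 2.89e-05) was second in size among the named falls. Of 16 Nodal pathway genes 4 fell and 0 rose (median -0.32), the others being Lefty2, a feedback inhibitor (-1.84, SE 0.40, adjusted p = 0.0079), and the Smad corepressor Skil (-0.58, adjusted p = 0.0790 against replicate 2). The pathway count was 2 without day 4 replicate 1 and 2 without day 5 replicate 1. Lefty2 lost its call in both cases, with adjusted p = 0.1175 against day 4 replicate 2 alone.

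With both day 4 arrays the Fgf pathway had the highest share of called members among the lists, 58.8%. Primitive streak had 57.1%, and 10.2% of all genes were called. Against day 4 replicate 2 alone the order of these lists turned. Of 17 genes 9 fell and 1 rose, with a median of -0.90, and against day 4 replicate 2 alone 4 fell and 1 rose. Without day 5 replicate 1, 3 members were called. Besides Fgf8, the ligand Fgf5 of the primed epiblast fell from 10.36 and 9.92 to 7.95 and 8.07 (-2.13, SE 0.36, adjusted p = 0.0015). Feedback and target genes of Fgf signalling fell too, Etv5 from 9.38 and 9.64 to 8.01 and 8.24 (-1.38, SE 0.19, adjusted p = 3.03e-04) and Spry4 by 1.54 on the log2 scale. Spry4 lost its call without any 1 of the 4 arrays (adjusted p = 0.0701 against day 4 replicate 2 alone). The member that rose was the receptor gene Fgfr2, by 0.84.

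Of 12 Wnt pathway targets 2 fell and 0 rose (median -0.39), and 1 fell against day 4 replicate 2 alone, where 10.2% and 2.29% of all genes were called. Sp5, a direct target gene of Wnt signalling in the streak, read 8.09 and 8.30 at day 4, then 6.30 and 6.32 at day 5 (-1.89, SE 0.26, adjusted p = 2.47e-04). Myc fell by 0.94 and lost its call against day 4 replicate 2 alone (adjusted p = 0.1663) and without day 5 replicate 1. The feedback gene Axin2, at -0.57, was among those that did not pass.

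The stretch of 250 bases before the start of Sp5 and of Mesp1 is shown because both genes fell and both stretches hold the core letters CTTTGA bound by Tcf and Lef factors, the nuclear effectors of Wnt signals. The sequences are from RefSeq for the build GRCm38.p6, 5′ to 3′ on the strand of the gene, with the core, on either strand, in capitals. That of Sp5 is chr2:70474673-70474922 on the plus strand, with matches 204 to 199 and 104 to 99 bases before the start. That of Mesp1 is chr7:79793591-79793840 on the minus strand, with a match of the opposite strand 72 to 67 bases before the start and one of the same strand 31 to 26 bases before it.
Sp5: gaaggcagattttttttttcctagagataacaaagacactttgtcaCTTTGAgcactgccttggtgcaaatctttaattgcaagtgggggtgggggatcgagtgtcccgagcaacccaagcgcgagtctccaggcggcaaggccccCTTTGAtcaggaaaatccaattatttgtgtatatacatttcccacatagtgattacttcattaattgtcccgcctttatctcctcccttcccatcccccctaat
Mesp1: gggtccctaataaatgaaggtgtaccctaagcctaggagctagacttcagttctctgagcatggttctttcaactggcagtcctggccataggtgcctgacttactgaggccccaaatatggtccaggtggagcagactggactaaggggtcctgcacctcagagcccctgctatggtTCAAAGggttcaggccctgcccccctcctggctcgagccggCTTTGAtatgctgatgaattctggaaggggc
Among the 15 largest falls, 12 had such a stretch in the table and 2 of these held the core, and among the 15 largest rises 11 had one and 1 held it (Igf2). Of all 32851 stretches of this length 13.8% held it. A match of these letters is a description and not a binding site.

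Of 22 pluripotency genes tested, 10 fell and 0 rose (45.5% called, against 10.2% of all genes), with a median of -0.75. Nanog lay at 9.26 and 9.10 on the day 4 arrays and at 6.68 and 6.12 on those of day 5, a 6.85-fold fall (-2.78, SE 0.62, adjusted p = 0.0093). Pou5f1, which encodes Oct4, went from 11.46 and 11.30 to 9.12 and 9.06 (-2.29, SE 0.54, adjusted p = 0.0123). The arrays of the days were far apart in both genes, and neither difference passed against day 4 replicate 2 alone (Nanog -2.70 and adjusted p = 0.0841, Pou5f1 -2.20 and adjusted p = 0.1035). Both also lost the call without either day 5 array. The list count was 3 against day 4 replicate 2 alone, 1 without day 5 replicate 1 and 4 without day 5 replicate 2. Dppa2, a chromatin factor of pluripotent and germ cells, passed against replicate 2 (-1.72 there, -1.43 with both day 4 arrays) and lost its call without day 5 replicate 1. Klf4 was the member with a positive difference, 0.90, which did not pass. Of 12 primed epiblast genes 4 fell and 0 rose, the others beside Tdgf1 and Fgf5 being Foxd3 (-0.84, SE 0.14, adjusted p = 0.0015) and Pou3f1 (-1.03). Pou3f1 lost its call without any 1 of the 4 arrays (adjusted p = 0.1692 against replicate 2). Against that array alone 4 members fell, Zic2 (adjusted p = 0.0065 there and 0.0784 with both) in its place.

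The largest rise was that of Snai2, a zinc finger repressor of migrating mesoderm and neural crest. It read 4.11 and 4.57 at day 4, under the median of all values, and 8.48 and 8.98 at day 5. The difference was 4.39 (SE 0.47, adjusted p = 2.89e-05), or 21.0-fold, and 17.9-fold against day 4 replicate 2 alone. Its relative Snai1 fell over the same step, as given above. Among 16 genes of cadherins and epithelial-mesenchymal transition, 2 rose and 2 fell (median 0.08), Zeb1 rising by 0.85 and Fn1, fibronectin, falling by 1.01. Of these 4 genes only Snai2 and Snai1 passed against day 4 replicate 2 alone, and Snai1 lost its call without day 4 replicate 2 and without day 5 replicate 1. Without day 5 replicate 1, 1 member of the list was called. Cdh1, E-cadherin, differed by -0.02 and Cdh2, N-cadherin, by -0.48, both without a call.

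Tdo2, tryptophan dioxygenase, stands in the list of allantois and extraembryonic mesoderm genes together with Snai2. It went from 3.40 and 3.31, a background level, to 7.20 and 7.70 (4.09, SE 0.62, adjusted p = 5.48e-04). Of the 12 genes of that list 4 rose and 0 fell (median 0.34), and 2 rose against day 4 replicate 2 alone and 2 were called without day 5 replicate 2. The median of the list was 0.05 against day 4 replicate 2 alone. The others that rose were Foxf1, a forkhead factor of lateral and extraembryonic mesoderm (1.19, SE 0.36, adjusted p = 0.0452), and Hand1 (0.84, SE 0.20, adjusted p = 0.0126). Foxf1 had adjusted p = 0.3445 and Hand1 0.1980 against day 4 replicate 2 alone. Because RMA does not take a silent gene below the background of its probes, folds from such levels are understated.

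Some transcription factors of heart progenitors rose, with 27.8% of the list called against 10.2% of all genes. Of 18 cardiac transcription factors 5 rose and 0 fell, with a median of 0.19, and 3 rose against day 4 replicate 2 alone. Without day 5 replicate 2, 3 members were called. Isl1, a LIM homeobox factor of the second heart field, read 6.94 and 7.38 at day 4, then 10.03 and 9.83 at day 5. Its rise was 6.84-fold (2.77, SE 0.44, adjusted p = 7.52e-04). Smarcd3, a subunit of the cardiac chromatin remodelling complex, went from 5.14 and 5.54 to 7.26 and 7.71 (2.15, SE 0.25, adjusted p = 4.96e-05). Mef2c, a MADS box factor, went from 5.25 and 5.21 to 6.49 and 6.84 (1.44, SE 0.26, adjusted p = 0.0024). Tbx20 behaved otherwise, because the day 4 arrays disagreed, at 5.97 and 7.51, before 8.58 and 8.71 at day 5. The rise was 1.91 (SE 0.58, adjusted p = 0.0435) with both and 1.13 (adjusted p = 0.4469) against replicate 2. Nkx2-5, at 5.88 to 6.08 on all 4 arrays, did not pass the test.

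Among 22 contractile genes 1 rose and 1 fell, against 10.2% of all genes called. Tnnc1, which encodes cardiac troponin C, rose from 6.48 and 6.75 to 8.20 and 7.97 (1.47, SE 0.42, adjusted p = 0.0321; adjusted p = 0.2140 against replicate 2), and the calcium pump gene Atp2a2 fell by 0.48 (adjusted p = 0.0483; 0.0857 against replicate 2). Both also lost their call without either day 5 array. Tnnt2, cardiac troponin T, stayed between 3.49 and 4.11 on all 4 arrays. It read 10.98 and 11.05 on the control arrays of day 6.

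Genes of paraxial mesoderm went both ways, 3 of 13 higher and 2 lower (median -0.04), and 2 higher and 1 lower against day 4 replicate 2 alone. The forkhead factor Foxc1 rose from 5.35 and 5.50 to 7.37 and 7.21 (1.86, SE 0.26, adjusted p = 2.82e-04). Foxc2 rose by 1.68 (SE 0.32, adjusted p = 0.0033; 0.0780 against day 4 replicate 2), and Aldh1a2, which makes retinoic acid, by 1.53 (SE 0.31, adjusted p = 0.0056; 0.0466 against replicate 2). The 2 lower members were Dll3 and Mesp2, the latter with adjusted p = 0.1710 against replicate 2. Without day 5 replicate 1, 2 members were called, and 3 without day 4 replicate 1.

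Of 15 Bmp pathway genes 3 rose and 1 fell (median 0.43), and against day 4 replicate 2 alone 1 rose and 1 fell. With both day 4 arrays 26.7% of the list was called, against 10.2% of all genes. Id2, an inhibitor of basic helix-loop-helix factors and a target of Bmp signalling, lay at 8.20 and 8.57 on the day 4 arrays and at 10.84 and 10.59 on those of day 5 (2.33, SE 0.23, adjusted p = 1.59e-05). The ligand Bmp5 rose by 2.00 (SE 0.40, adjusted p = 0.0052), from day 4 values of 5.60 and 6.75 that lay apart, and had adjusted p = 0.1116 against replicate 2. Id3 rose by 0.65 (adjusted p = 0.0914 against replicate 2). Chrd, a secreted antagonist of Bmp, fell from 7.59 and 7.28 to 6.54 and 6.48 (-0.92, SE 0.12, adjusted p = 1.70e-04). Among 16 secreted antagonists 3 fell and 0 rose, Fst, which binds activin, by 2.33 (SE 0.50, adjusted p = 0.0074; 0.0887 against replicate 2), and Lefty2 and Chrd as above.

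The genes of the series title did not change between these days in a way that passed the test. Sox17 read 10.30 and 10.66 at day 4, then 10.38 and 10.38 at day 5, a difference of -0.10 (SE 0.80, adjusted p = 0.9539). The homeobox gene Hhex, of anterior endoderm and liver, differed by 0.01 (SE 0.45, adjusted p = 0.9929). Cer1, the secreted antagonist of Nodal and Bmp, lay at 9.25 and 8.85 at day 4 and at 7.62 and 7.49 at day 5. Its arrays did not overlap, but with the spread fitted over all groups the difference of -1.49 (SE 0.60) had adjusted p = 0.1222. With the bioB signal as a covariate it passed (adjusted p = 0.0108). In the list of definitive endoderm, 1 of 24 genes rose and 1 fell (median -0.03), with the same counts against day 4 replicate 2 alone. With both day 4 arrays 8.33% of the list was called, against 10.2% of all genes. Cpm, a membrane carboxypeptidase, lay at 7.26 and 7.46 on the day 4 arrays and at 10.83 and 10.61 on those of day 5. That 10.2-fold rise (3.36, SE 0.30, adjusted p = 6.42e-06) was the third largest, and the member that fell was Gsc.

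Other large rises came from genes outside the lists or of several groups. Alx1, a homeobox gene of head mesenchyme, read 3.94 and 4.02 at day 4, then 7.35 and 6.87 at day 5 (3.13, SE 0.22, adjusted p = 3.99e-07). Tgfb2, a growth factor of cushion and mesenchyme, went from 5.11 and 5.80 to 8.31 and 8.20 (2.80, SE 0.35, adjusted p = 1.18e-04). Igf2, the imprinted growth factor gene, went from 9.02 and 9.75 to 11.50 and 11.86 (2.30, SE 0.34, adjusted p = 4.95e-04). It was the 1 of 13 imprinted growth genes that was called. Hesx1, a homeobox repressor of anterior ectoderm, went from 5.23 and 5.24 to 7.60 and 7.13 (2.12, SE 0.20, adjusted p = 7.21e-06). It stands in the neural list, where 3 of 14 genes rose and 0 fell, with Irx3 and Sox21, which both lost the call against day 4 replicate 2 alone and without day 5 replicate 1. The matrix gene Frem1, the transporter gene Slco4c1, the zinc finger gene Zfp711, the tetraspanin gene Tspan12 and Plat, tissue plasminogen activator, rose by 2.25 to 2.48. For Plat, 1 of its 2 probe sets had the opposite sign. Of other genes named as changed, the same held for 2 of 6 probe sets of Atp2a2 and 2 of 8 of Vcan. Among named genes not called in the step it held for 1 of 4 of Fxyd2, 1 of 2 of Fbln2, 1 of 3 of Tnnt2 and 1 of 2 of Myl4.

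Of the other large falls, Igfbp3, which binds insulin-like growth factors, went from 9.66 and 9.54 to 6.79 and 6.39 (-3.01, SE 0.52, adjusted p = 0.0015). Upp1, uridine phosphorylase, lay at 11.66 and 11.12 on the day 4 arrays and at 9.15 and 8.72 on those of day 5 (-2.46, SE 0.33, adjusted p = 2.15e-04). Ltb, lymphotoxin beta, fell by 2.37 and Dennd2c by 1.87. Tagln, transgelin, an actin-binding protein of smooth muscle and early mesoderm, read 8.69 and 8.45 before and 6.35 and 6.08 after (-2.36, SE 0.38, adjusted p = 9.43e-04).

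Among 15 genes of smooth muscle and the actin cytoskeleton 0 were higher, the median was -0.40, and 26.7% were called against 10.2% of all genes. Tagln was 1 of 4 members that fell. The others were the myosin light chain gene Myl9 (-1.31, SE 0.32, adjusted p = 0.0137), calponin, Cnn1 (-1.17, SE 0.26, adjusted p = 0.0090), and zyxin, Zyx (-0.84, SE 0.22, adjusted p = 0.0226). These 3 lost their call against day 4 replicate 2 alone (adjusted p = 0.0692, 0.1077 and 0.1062), so the count was 1 there, and 1 without day 5 replicate 1 as well. Acta2, smooth muscle actin, differed by -0.07.

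Lists of contact with a substrate held no called gene. With 10.2% of all genes called, lists of this length would hold few called genes at that share. A response to plating was not tested. By limma 0 of 15 integrin and focal adhesion genes, 0 of 12 Yap and Tead targets and 0 of 14 immediate early genes were called, with 2, 1 and 2 of them at an unadjusted p below 0.05. Their medians were -0.16, -0.23 and -0.19. Among 18 fibrillar and mesenchymal matrix genes 3 rose and 1 fell (median 0.05), of which the secreted protein gene Fstl1 passed against replicate 2 (1.10, SE 0.14, adjusted p = 1.18e-04 with both), while Vcan (1.27) and Fbn2 (1.66) did not. In that list 1 member was called without day 4 replicate 1 and 1 without either day 5 array. Of 17 basement membrane genes 1, Nid2, fell, by 0.75 (adjusted p = 0.1071 against replicate 2).

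Of 16 cholesterol synthesis genes 8 fell and 0 rose, with a median of -0.63, and 2 fell against day 4 replicate 2 alone. Lss, lanosterol synthase, read 8.56 and 8.76 at day 4, then 7.57 and 7.70 at day 5 (-1.03, SE 0.18, adjusted p = 0.0015), and Cyp51, which acts on lanosterol next, went from 9.42 and 9.41 to 8.75 and 8.71 (-0.68, SE 0.13, adjusted p = 0.0044). Those 2 were the members called against that array, and 2 members were called without day 5 replicate 1. Dhcr7 and Mvk fell by 0.84 and 0.74 with both day 4 arrays.

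**Figure D3:**
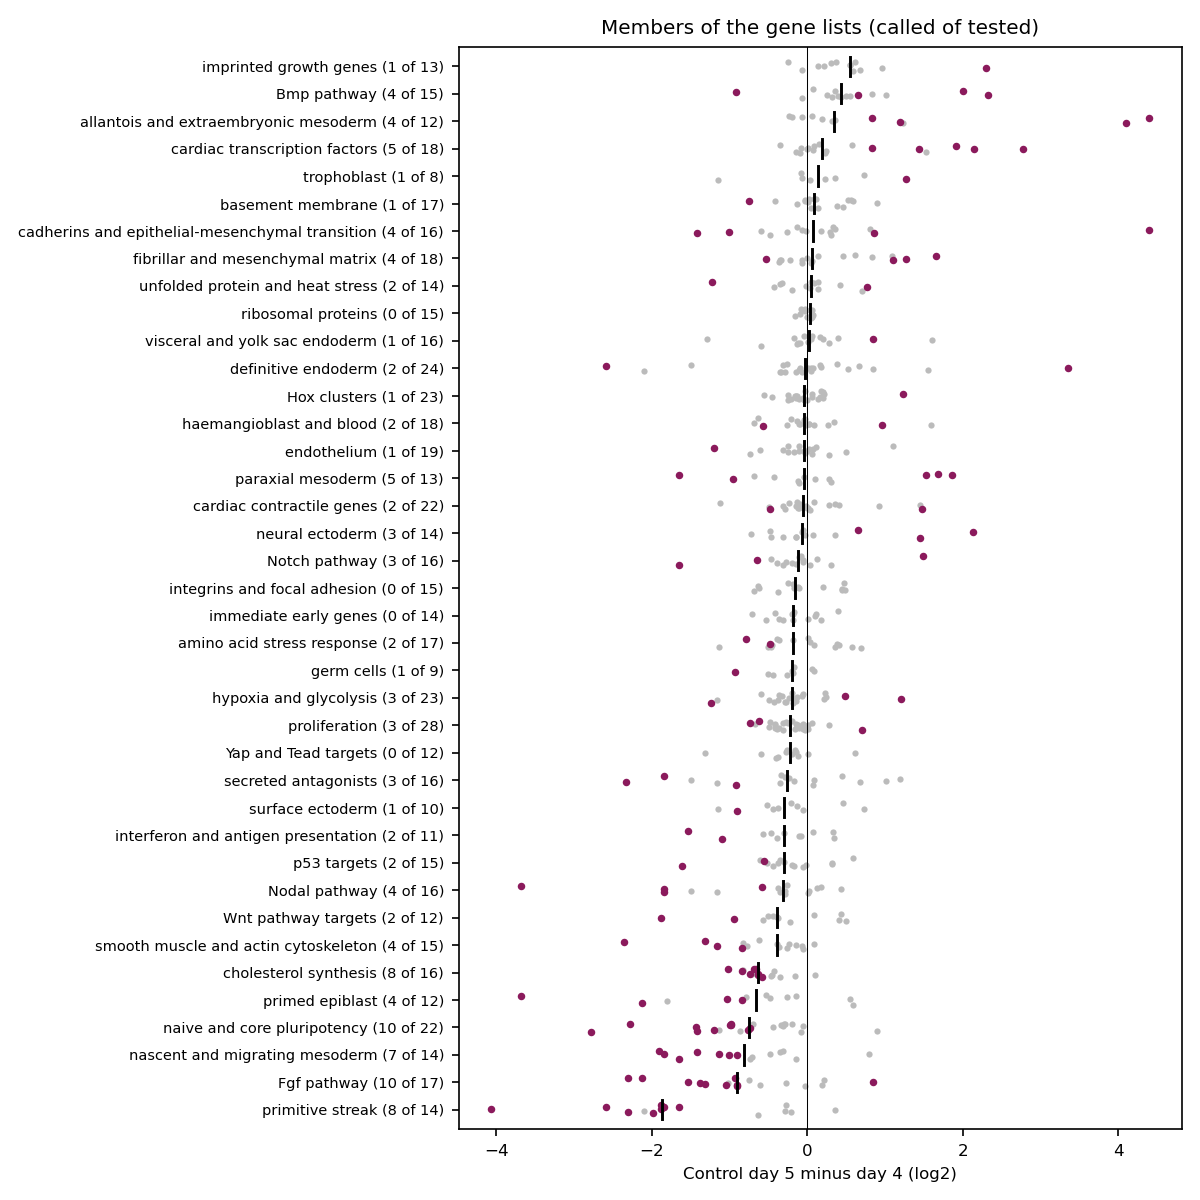
Day 5 minus day 4 (log2) in the control arm for the tested members of the 39 gene lists, ordered by the median, which is the black bar, with called members in purple, others in grey, and the number called of the number tested beside each name. Primitive streak lies lowest with 8 of 14 called and a median of -1.86.

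The other lists had 3 called members or fewer each, with 10.2% of all genes called. Without day 4 replicate 1, and likewise without day 5 replicate 1, 0 or 1 member was called in each list of this paragraph. Of 23 hypoxia and glycolysis genes 2 rose and 1 fell, Vegfa by 1.20, the glucose transporter Slc2a1 by 0.48 and hexokinase 2, Hk2, by -1.23. Of 28 proliferation genes 1 rose, Ccne2 (0.70), and 2 fell, Plk1 (-0.74) and Cdc20 (-0.62). Of 16 Notch genes 1 rose, Hey2 (1.49), and 2 fell, Dll3 and Hes1 (-0.65). Among 23 Hox genes Hoxb2 rose (1.23, SE 0.25, adjusted p = 0.0052; 0.0758 against replicate 2). In the 17 amino acid stress genes Shmt2 and Slc3a2 fell (-0.79 and -0.48), in the 14 unfolded protein and heat stress genes Hspb1 fell (-1.23) and Dnajb9 rose (0.77), and in the 15 p53 targets Pmaip1 and Aen fell (-1.62 and -0.56). Of 11 interferon and antigen presentation genes Psmb8 and Bst2 fell (-1.53 and -1.09). Of the genes of this paragraph Hk2 and Dll3 passed against day 4 replicate 2 alone, and the rest did not. Of 15 ribosomal protein genes 0 were called by limma and 1 had an unadjusted p below 0.05.

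Many markers of other cell types, but not all, were at background. The blood gene Hbb-y, the endothelial genes Cdh5, Pecam1 and Tek, the neural genes Sox1 and Pax6, the visceral endoderm gene Afp, the skin gene Krt14, the trophoblast genes Elf5 and Tpbpa and the germ cell genes Ddx4 and Dazl lay between 3.30 and 4.94 on all 4 arrays. Visceral endoderm genes were present, with Dab2 between 9.56 and 9.93, the uptake receptor gene Cubn between 8.87 and 9.69 and its partner Amn between 6.56 and 7.43. Ttr, transthyretin, read 8.36 and 8.62 at day 4, then 9.93 and 10.26 at day 5 (1.60, adjusted p = 0.4606). The blood factors Gata1 and Klf1 lay between 5.65 and 6.65. None of these 6 genes was called. In the blood list 1 of 18 genes rose (Tal1, 0.96) and 1 fell (Myb, -0.56), and in the endothelial list 1 of 19 fell (Flt1, -1.20, SE 0.36, adjusted p = 0.0406; 0.1533 against replicate 2). The visceral and yolk sac list had 1 of 16 higher, Cited1 (0.84), the surface ectoderm list 1 of 10 lower, Grhl3 (-0.91), the trophoblast list 1 of 8 higher, Plac1 (1.26), and the germ cell list 1 of 9 lower, Dnd1 (-0.93). Of the called genes of these lists, Grhl3 alone passed against replicate 2. Without day 5 replicate 1, 0 or 1 member was called in each of these lists.

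Day 5 was then set against the mean of days 4 and 6. A gene called here need not be highest or lowest at day 5, because 1 distant neighbour can move that mean. By this contrast 368 genes were higher at day 5 than that mean (2.77%) and 805 lower (6.05%), 1173 in all (8.82%). The count was 111 without day 5 replicate 1, 656 without day 5 replicate 2 and 547 without day 6 replicate 1. This contrast shares its day 4 and day 5 arrays with the step. Alx1 stood highest: at day 6 it read 5.57 and 5.11, between its day 4 and day 5 levels, and day 5 exceeded the mean of its neighbours by 2.45 (SE 0.19, adjusted p = 2.99e-07). Slco4c1 read 4.78 and 4.64 at day 6 and exceeded that mean by 2.24 (SE 0.28, adjusted p = 1.23e-04). Fxyd2, a regulator of the sodium pump, went from 6.55 and 7.43 at day 4 to 7.77 and 8.63 at day 5 and then to 4.77 and 5.11, and its contrast was 2.23 (SE 0.33, adjusted p = 5.37e-04). Its step from day 4 to day 5 was not called (adjusted p = 0.0522). Cpm (1.98, SE 0.26), the defensin gene Defa31 (1.65, SE 0.13) and Snai2 (1.57, SE 0.41, adjusted p = 0.0226) were the other 3 of the 6 highest. At day 6 Cpm read 10.34 and 9.87. Snai2 read 9.96 and 10.00 at day 6, above its day 5 arrays. Its call in this contrast was lost without day 4 replicate 1, either day 5 array or day 6 replicate 1 (adjusted p up to 0.1675).

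The 6 lowest were Tagln (-3.69, SE 0.33), Myl7 (-3.58, SE 0.32), Tnnt2 (-3.35, SE 0.14), Actc1 (-3.28, SE 0.17), Myl4 (-3.26, SE 0.20) and Ccn2 (-2.93, SE 0.54), a secreted matrix-associated protein gene. For Tnnt2, Actc1 and Myl4, which encode troponin T, cardiac actin and an atrial myosin light chain, day 5 did not differ from day 4 with a call and the contrast came from day 6, where Actc1 reached 12.20 and 12.28. Myl7, the other atrial light chain, went from 7.61 and 7.38 to 6.77 and 5.97 over the step (adjusted p = 0.0584) and to 12.31 and 12.50 by day 6. Tagln was the member with a called dip, from 8.69 and 8.45 through 6.35 and 6.08 to 11.04 and 11.43. Ccn2 read 8.09 and 8.31, then 6.87 and 6.88, then 11.63 and 11.19, and lost its call in this contrast without day 5 replicate 1 (adjusted p = 0.0804).

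**Figure D4:**
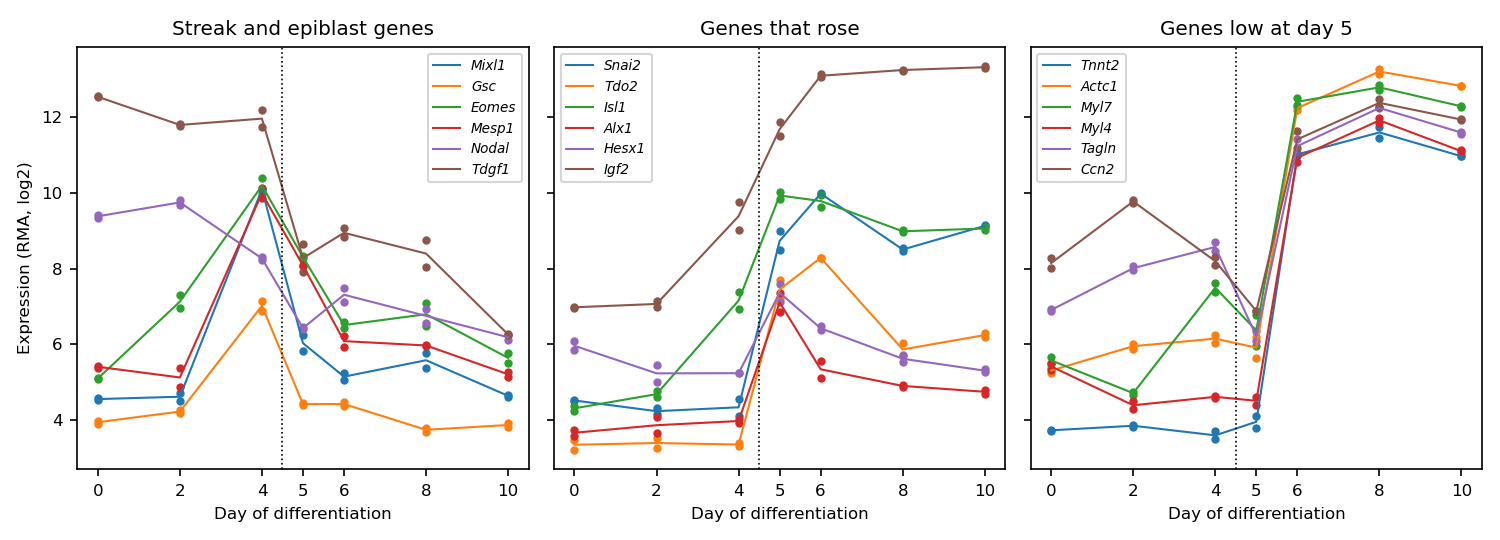
Log2 expression in the control arm from day 0 to day 10, with a point for each array, lines through the mean of the 2 arrays of a day, and a dotted line at plating (day 4.5). Mixl1 and Gsc peak at day 4, Alx1 and Hesx1 peak at day 5, and Tnnt2, Actc1 and Myl4 are low at day 5 and high at day 6.

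The size of the step can be set beside the others of the control arm. From day 0 to 2 4263 genes changed (32.1%), from day 2 to 4 4323 (32.5%), from day 5 to 6 2382 (17.9%), from day 6 to 8 1107 (8.33%) and from day 8 to 10 47 (0.353%). The steps differ in length and neighbouring ones share arrays.

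The same step was measured in the Sox17 shRNA arm, where 747 genes changed (5.62%), 304 higher (2.29%) and 443 lower (3.33%). The difference of the steps was tested as an interaction and was called for 13 genes (0.0978%), 5 higher (0.0376%) and 8 lower (0.0602%), while 776 (5.84%) had an unadjusted p below 0.05. The bioB signal of the Sox17 shRNA arrays was 9.37 and 6.83 at day 4 and 7.67 and 6.76 at day 5, and the actin 3' minus 5' difference was 0.86 on replicate 2 of its day 4. With the bioB signal as a covariate 85 genes were called instead of 13, 25 higher and 60 lower. The part of the actin difference was not tested. The count was 7 without day 4 replicate 1 of the control, 4 without its day 5 replicate 1, 8 without its day 5 replicate 2, and 36, 174, 48 and 27 without Sox17 shRNA day 4 replicate 1, day 4 replicate 2, day 5 replicate 1 and day 5 replicate 2.

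Mixl1 showed the widest gap. With Sox17 shRNA it lay at 10.37 and 11.36 before plating and at 10.43 and 9.89 after it. The fall of the control (-4.06) stood beside -0.71 (SE 0.37), a difference of -3.35 (SE 0.52, adjusted p = 0.0082). The call did not hold when control day 4 replicate 1 (adjusted p = 0.0514) or control day 5 replicate 1 (0.0818) was left out. Alx1 stayed at 3.84 and 3.71, then 3.95 and 4.06, with Sox17 shRNA, where the control rose by 3.13 (difference 2.91, SE 0.31, adjusted p = 3.02e-04). Hesx1 read 4.90 and 4.76, then 4.95 and 5.06, against a control rise of 2.12 (difference 1.95, SE 0.28, adjusted p = 0.0044). The arrays of Alx1 and Hesx1 with Sox17 shRNA thus all lay below the day 5 controls. Pcdh8, a protocadherin of paraxial mesoderm, rose in the control, from 5.22 and 6.37 to 7.50 and 7.21, and fell with Sox17 shRNA, from 6.88 and 7.80 to 5.56 and 5.65 (difference 3.29, SE 0.44, adjusted p = 0.0030). Its control rise alone lost the call against day 4 replicate 2 alone (adjusted p = 0.1066) and without day 5 replicate 1. Fgf10, a ligand of mesoderm and its outgrowths, went the other way, from 6.14 and 6.33 to 5.18 and 5.49 in the control and from 5.31 and 5.65 to 6.37 and 6.70 with Sox17 shRNA (difference -1.95, SE 0.25, adjusted p = 0.0026).

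**Figure D5:**
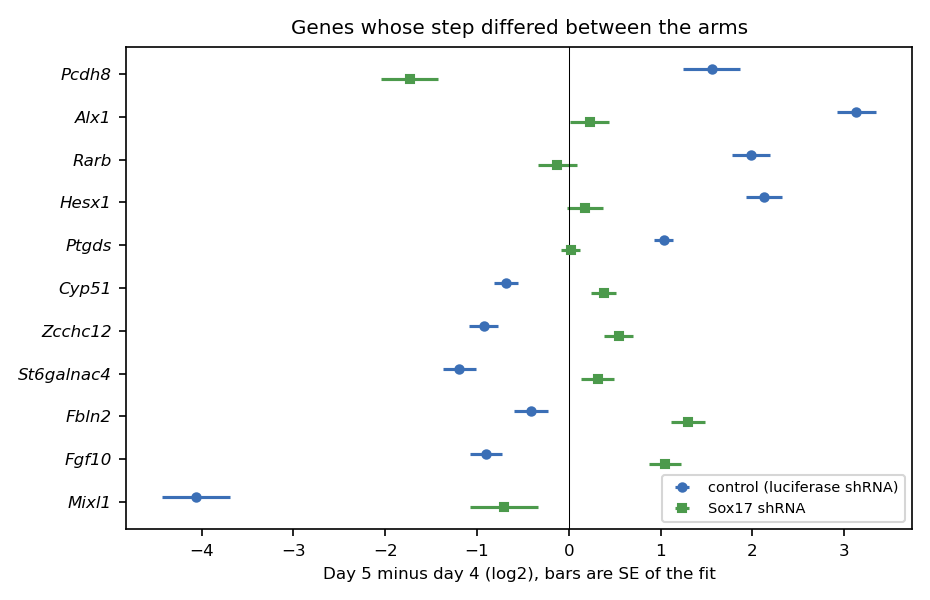
Day 5 minus day 4 (log2) with the SE of the fit for the 11 named genes whose step differed between the arms, circles for the control and squares for the Sox17 shRNA arm. Alx1, Rarb and Hesx1 rise in the control arm and stay near 0 with Sox17 shRNA, and Mixl1 falls by 4.06 in the control arm.

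Rarb, the retinoic acid receptor beta gene, lay at 4.66 and 4.76 on the day 4 arrays and at 6.75 and 6.65 on those of day 5 in the control (1.99, SE 0.21, adjusted p = 2.72e-05). With Sox17 shRNA it read 4.83 and 4.67, then 4.50 and 4.76, and the difference of the steps was 2.11 (SE 0.29, adjusted p = 0.0040). The control rise of Aldh1a2 is given above. With Sox17 shRNA Aldh1a2 read 4.72 and 5.36, then 6.00 and 5.48. Its steps differed between the arms by 0.83 (SE 0.44, adjusted p = 0.9290 by limma's interaction test). Rarb is known as a direct target of retinoic acid, and the part of retinoic acid in its rise was not tested. The 250 bases before its start are shown because they hold the direct repeat of GTTCA with a gap of 6 bases between the copies, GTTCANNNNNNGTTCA, which receptors of retinoic acid bind. The stretch is chr14:16575477-16575726 on the minus strand of GRCm38.p6, from RefSeq, 5′ to 3′ on the strand of the gene, with the repeat in capitals 52 to 37 bases before the start.
Rarb: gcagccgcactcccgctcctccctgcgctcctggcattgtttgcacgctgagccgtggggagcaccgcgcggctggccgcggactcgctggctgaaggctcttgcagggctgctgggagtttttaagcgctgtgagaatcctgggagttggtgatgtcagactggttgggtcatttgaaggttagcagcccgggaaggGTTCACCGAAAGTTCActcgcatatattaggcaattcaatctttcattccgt
Both strands were searched, and 22 of the 32851 stretches (0.067%) held the repeat. It was found in 0 of the 11 stretches of the largest rises and 0 of the 12 of the largest falls, which says only that these letters are not in those windows.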

How the data were processed

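Total RNA was hybridised to Affymetrix mouse arrays, 1 per sample. The authors deposited log2 expression values for 45101 probe sets on 27 arrays, made with RMA per the submitters' processing notes. RMA corrects background, quantile-normalizes and summarises probes; the sources used here do not give its version or say if the arrays were processed in 1 run. Quantile normalization gives each array the same distribution, so a difference is relative to the rest of its array. Values ranged from 2.66 to 14.5, and the number of arrays limits the precision.

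Of the probe sets, 34958 have 1 gene symbol in the platform annotation, 932 several and 9211 are not listed there; 0 symbols changed through RefSeq gene identifiers (GRCm38.p6). Probe sets above the median of all values (5.53) on at least 2 arrays were kept, and the one with the highest mean stood for each of 13297 genes. Genes that dropped out, such as Wnt3, Cdx1 and Cdx4, were not tested here. Nor was the streak marker T, which had no probe set under that symbol alone even before the filter.

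limma 3.58.1 in R 4.3.3 fitted a mean for each of 14 groups to all 27 arrays (13 residual degrees of freedom, intensity trend). Tests are two-sided, with Benjamini-Hochberg adjustment over all genes and a threshold of 0.05; SE are those of the fit. An exact permutation test of 2 arrays against 2 cannot give a p below 0.333, so none was used. The script was tested on simulated data. The report names the genes of the series title and up to 4 called members of each of 39 gene lists. It names the 15 largest rises and falls whose arrays of the days did not overlap and that also passed against day 4 replicate 2. The 10 genes that differed most surely between the arms and the 6 highest and lowest of the day 5 contrast are named too. Other genes are list members or markers, some chosen after their values were seen. The members and lists were chosen with earlier results of these data known. Alternatives were other filters, probe set rules, scalings, fits over fewer groups, array weights, the bioB signal as a covariate, a replicate block and leaving out each array.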

Additional observations from a re-analysis of the deposited data

Results flagged for a closer look

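In 11 of the genes named in the report, the step from day 4 to day 5 differed between the control and the Sox17 shRNA arm by limma's interaction test, with values as control step minus Sox17 shRNA step (log2). The control step was the higher one for Alx1 (2.91), Pcdh8 (3.29), Rarb (2.11), Hesx1 (1.95) and Ptgds, a prostaglandin synthase gene (1.01, SE 0.15, adjusted p = 0.0064). It was the lower one for Mixl1 (-3.35), Fgf10 (-1.95), Fbln2 (-1.71, SE 0.26, adjusted p = 0.0077), St6galnac4 (-1.51, SE 0.25, adjusted p = 0.0174), Zcchc12 (-1.47, SE 0.22, adjusted p = 0.0077) and Cyp51 (-1.06, SE 0.19, adjusted p = 0.0292). Alx1, Rarb, Fgf10 and Pcdh8 kept the call without each of the 8 arrays in turn. Ptgds (adjusted p = 0.0735) and Hesx1 (0.0534) lost it without control day 5 replicate 1. Fbln2 lost it without control day 4 replicate 1 (0.0514) or control day 5 replicate 1 (0.0809), and Zcchc12 without these or control day 5 replicate 2 (0.0514, 0.0534 and 0.0607). St6galnac4 lost it without each of the 4 control arrays (0.0679 to 0.0979) and without Sox17 shRNA day 5 replicate 2 (0.0510), and Cyp51 without each of the 4 control arrays (0.0947 to 0.1425) and without replicate 1 of Sox17 shRNA at day 4 or day 5 (0.0603 and 0.0665). Fbln2, a matrix gene, rose with Sox17 shRNA from 5.86 and 6.06 to 6.83 and 7.69, while its control step (-0.41, adjusted p = 0.1796) was not called.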

How the results depend on the processing

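In the 103 named genes called in the step the arrays of the days did not overlap. Leaving out an array or fitting fewer groups thus could not change their sign. None of them changed sign under the other runs. Differences near 0 without a call did, those of Sox17, Hhex, Actc1 and Myl4, and so did the medians of 11 lists. The balance of higher to lower genes turned with arrays centred on the median (790 to 641) and after cyclic loess (718 to 708). For the step (1353 genes), fits of the control arm alone gave 3112 genes and of the 4 arrays alone 800, the only settings besides leaving out an array that moved the count by over 1.5 times; leaving out 1 array gave 218 to 1819. The list members called were 104 (242 with the control arm alone, 35 to 106 without 1 array), and the named genes called were 103 of 113 (49 to 88 without 1 array). Against day 4 replicate 2 alone (305) the control arm alone gave 2292, and leaving out a day 5 array 59 to 216. For the difference of the arms (13) the mean of probe sets gave 22, arrays centred on the median 24, the bioB signal as covariate 85, and leaving out 1 array 4 to 174. For day 5 against its neighbours (1173) the bioB covariate gave 1820, the control arm alone 3064, and leaving out 1 array 111 to 1052. With replicate number as a block the step gave 1559 genes, the difference of the arms 22 and day 5 against its neighbours 1446. Replicate deviations at day 4 and day 5 correlated at 0.138 over genes; the labels give the arrays only a shared number. The causes of these movements were not tested. Fits that leave out an array also rest on fewer arrays. All 30 genes of the largest rises and falls that were tested under a setting kept their call; the stricter filter tested 26 of them. With 2 arrays a day, small differences are beyond what the arrays can show, and genes near background give understated folds.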
